A study of Caenorhabditis elegans with 6 samples.

Results

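The genes described here are the cytochrome P450 genes of *Caenorhabditis elegans* that lie outside the CYP35 family. They were taken as the rows of the deposited count table whose gene identifier carries a symbol starting with *cyp-*, leaving out the symbols starting with *cyp-35*. This gave 64 genes in 14 families among 46904 identifiers, and 45 of the 64 reached a CPM (counts scaled to the same library total) of at least 1 in at least 3 of the 6 libraries and could be tested. The rule reads symbols only, so *daf-9*, the P450 of the dafachronic acid pathway, is not among them.

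The study compared worms fed CGP37157, a benzothiazepine that inhibits the mitochondrial Na+/Ca2+ exchanger and was studied for its effect on lifespan, with untreated worms. There were 3 libraries of CGP37157-treated worms (50 µM in seeded plates) and 3 libraries of control worms (treatment given as none). All 6 came from the wild-type strain N2, were moved to their plates as young adults at 20 °C and were collected at day 5, which the methods count from the start of treatment and the labels give as the age of the worms. Whole worms were used and polyadenylated RNA was sequenced. The labels mention no solvent on the control plates, and they do not say whether replicates were separate cultures, so the p-values measure the spread between these libraries, which may be technical.

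Cytochrome P450 enzymes carry a haem group and insert 1 atom of molecular oxygen into a substrate, with electrons passed on by an NADPH-dependent reductase and in some reactions by cytochrome b5. In animals some members modify foreign compounds in the first phase of detoxification, and others make or break down sterols, fatty acids and signalling lipids. In *C. elegans* the genes of several families lie side by side on the chromosomes, and the intestine is a main site of their expression. Worm P450 genes of the CYP14, CYP33, CYP34 and CYP35 families are known to include genes induced by foreign compounds, while the CYP31 enzymes have a role in making the eggshell.

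Total counts lay between 23821727 and 24551795 in the CGP37157 libraries and between 21122852 and 21245713 in the control libraries. The genes described here took 0.103% to 0.119% of these counts in CGP37157-treated worms and 0.0507% to 0.0813% in control worms. Control replicate 2 stood apart from its group, with a mean correlation of 0.955 with the other control libraries, against 0.962 and 0.967 for the others. It was the lowest control library in 34 of the 45 tested P450 genes, while 37.2% of all tested genes had their lowest control value there. Levels below are CPM after scaling by trimmed mean of M values (TMM), and fold changes are on the log2 scale, CGP37157 over control, with their standard error.

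In CGP37157-treated worms 12 of the 45 tested P450 genes rose (adjusted p under 0.05 over all 12385 tested genes in edgeR's quasi-likelihood test with Benjamini-Hochberg adjustment), and 0 fell. Among all tested genes 1.16% rose and 0.234% fell. The 12 genes were *cyp-34A7*, *cyp-34A8*, *cyp-34A9* and *cyp-34A10*, *cyp-14A2*, *cyp-14A3* and *cyp-14A4*, *cyp-33C1* and *cyp-33C2*, and 1 gene each of 3 further families, *cyp-29A3*, *cyp-37B1* and *cyp-13A12*. Their log2 fold changes lay between 1.81 and 7.85. The count of 12 must be read with the filter, because *cyp-13A12*, *cyp-14A4*, *cyp-33C1*, *cyp-33C2* and *cyp-34A10* were tested only through the CGP37157 libraries. Over all 64 genes, before any filter, 18.8% rose. At an unadjusted p under 0.05, 13 of the 45 were higher and 1 was lower (2.82% and 1.97% of all tested genes), and DESeq2 and edgeR's likelihood ratio test gave 12 higher and 0 lower. Without control replicate 2, 11 rose and 1, *cyp-25A1*, fell, beside 160 and 34 of all tested genes.

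The other 33 tested genes spread to both sides of no change, with 14 log2 fold changes above 0 and 19 below (47.4% of all tested genes were above 0), and a median of -0.05 against -0.01 over all tested genes. Over the 45 genes the median was 0.08. The groups did not overlap in 14 of the 45 genes with all CGP37157 libraries above all control libraries, and in 1 gene with all of them below, against 3.85% and 3.69% of all tested genes. The 14 were the 12 that rose, *cyp-29A2* and *cyp-36A1*, and the 1 was *cyp-33C4*. Of the 14, 5 were tested only through the CGP37157 libraries, so the filter largely fixed that their groups did not overlap.

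**Figure D1:**
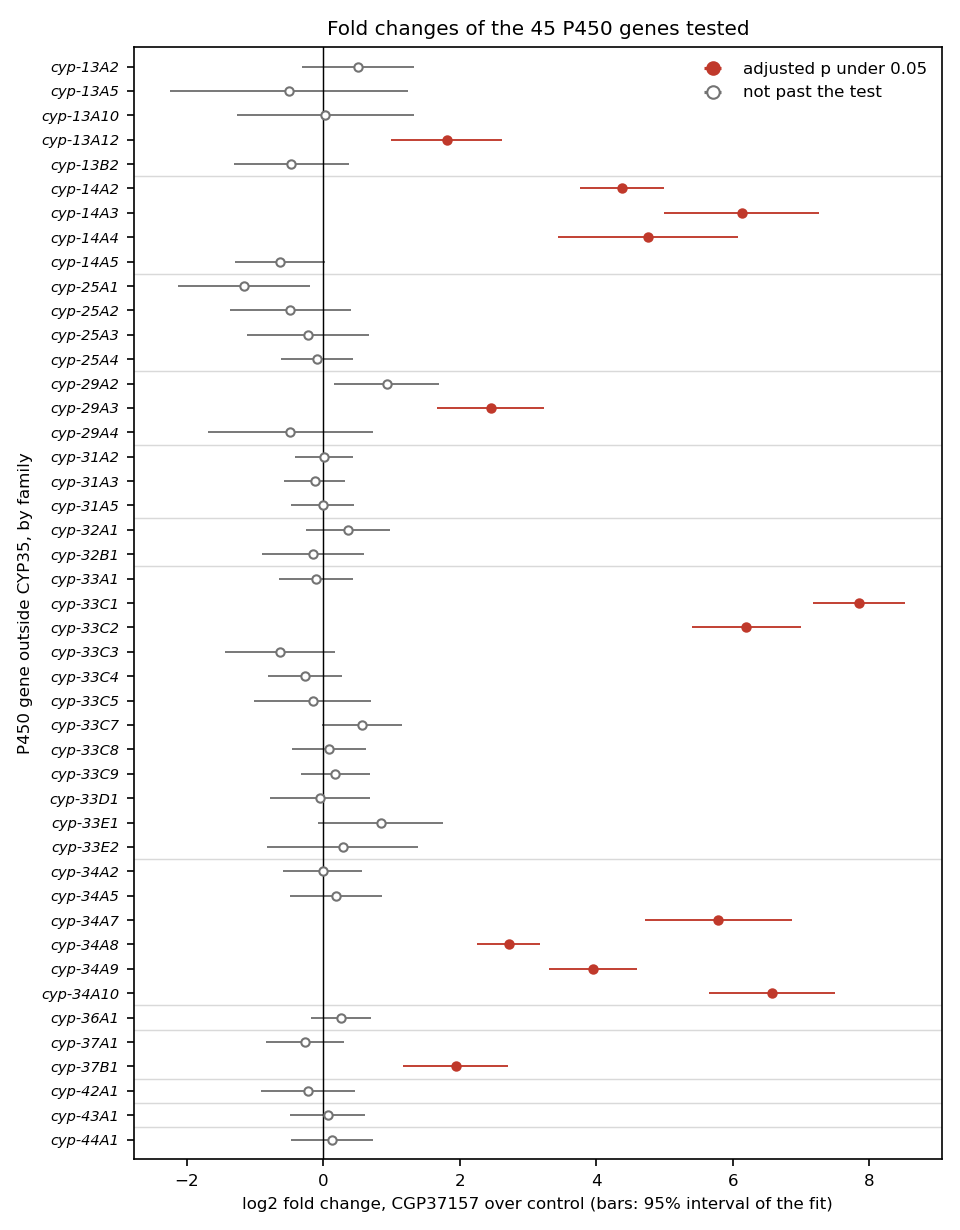
log2 fold change of each of the 45 tested P450 genes, CGP37157 over control, by family, with the 95% interval of the edgeR fit (n = 3 libraries in each group); filled red points mark an adjusted p under 0.05. The 12 red points lie between 1.81 and 7.85, and the 33 open points between -1.16 and 0.93.

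The CYP34 genes carried the largest part of the RNA of the 12 genes that rose. The family has 8 genes in the table, 6 were tested and 4 rose, *cyp-34A7* to *cyp-34A10*. *cyp-34A9* had 151, 140 and 147 CPM in the CGP37157 libraries, against 13.4, 6.44 and 8.33 CPM in the control libraries. Every CGP37157 library was far above every control library, and the treated libraries lay close together. The log2 fold change of *cyp-34A9* was 3.95 ± 0.29 (SE, edgeR quasi-likelihood adjusted p = 2.82e-05).

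*cyp-34A8* had 78.4, 79.6 and 79.5 CPM in the CGP37157 libraries, against 10.2, 12.9 and 13.1 CPM in the control libraries, a log2 fold change of 2.71 ± 0.21 (SE, edgeR quasi-likelihood adjusted p = 3.82e-05). It started from the highest control level of the 12 genes that rose and had the smallest fold change of the 4 in its family. *cyp-34A10* and *cyp-34A7* were close to absent in control worms. *cyp-34A10* had 38.8, 36.9 and 27.6 CPM in the CGP37157 libraries, against 0.626, 0.174 and 0.228 CPM in the control libraries (log2 fold change 6.57 ± 0.41, SE, edgeR quasi-likelihood adjusted p = 8.62e-06). *cyp-34A7* had 34.4, 40.2 and 47.7 CPM in the CGP37157 libraries, against 1.42, 0.290 and 0.410 CPM in the control libraries (log2 fold change 5.79 ± 0.49, SE, edgeR quasi-likelihood adjusted p = 7.99e-05). In both genes even the lowest treated library was far above the highest control library. Control replicate 1 was the highest control library in both, and without it the log2 fold change was 7.37 for *cyp-34A10* and 6.82 for *cyp-34A7*.

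The other CYP34 genes did not pass the test. *cyp-34A5*, in the same row of genes as the 4 that rose, averaged 3.71 ± 0.37 CPM in CGP37157-treated worms and 3.25 ± 1.08 CPM in control worms (SD, n = 3 each), and *cyp-34A2*, elsewhere on the chromosome, averaged 4.44 ± 0.88 CPM in CGP37157-treated worms and 4.48 ± 0.27 CPM in control worms. *cyp-34A6*, which lies between *cyp-34A5* and *cyp-34A7*, was under the filter, with 53 counts over the CGP37157 libraries and 35 over the control libraries, and *cyp-34A1* had 13 over the CGP37157 libraries and 11 over the control libraries.

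In the CYP14 family 3 of the 4 tested genes rose, and the gene with the highest level did not. *cyp-14A3* had 50.8, 58.0 and 52.1 CPM in the CGP37157 libraries, against 1.46, 0.174 and 0.546 CPM in the control libraries (log2 fold change 6.13 ± 0.51, SE, edgeR quasi-likelihood adjusted p = 7.97e-05). *cyp-14A2* had 22.9, 21.8 and 24.2 CPM in the CGP37157 libraries, against 0.960, 0.870 and 1.46 CPM in the control libraries (log2 fold change 4.38 ± 0.28, SE, edgeR quasi-likelihood adjusted p = 8.91e-06). The treated libraries differed little from each other in both genes, and the control libraries of *cyp-14A3* differed more, replicate 2 being the lowest. Without control replicate 1, the highest, the log2 fold change of *cyp-14A3* was 7.14.

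*cyp-14A4* was scarce in both groups. It had 1.49, 2.12 and 1.92 CPM in the CGP37157 libraries (34, 58 and 45 counts), against 0.0417, 0 and 0.137 CPM in the control libraries (1, 0 and 3 counts). The count of 0 in control replicate 2 allows a level of up to 0.174 CPM (3 counts). With 137 counts in CGP37157-treated worms and 4 in control worms, the ratio at equal depth was 29.4, with an exact 95% counting interval of 11.2 to 109.4, and the log2 fold change was 4.76 ± 0.60 (SE, edgeR quasi-likelihood adjusted p = 0.00150). Without control replicate 3 the log2 fold change of *cyp-14A4* was 5.97. Counting intervals cover counting error only.

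*cyp-14A5*, which lies on chromosome V away from its X-linked relatives, had 91.0, 113 and 112 CPM in the CGP37157 libraries, against 106, 138 and 247 CPM in the control libraries. The groups overlapped, and control replicate 3 was far above the other 5 libraries. The log2 fold change was -0.64 with a 95% interval of -1.30 to 0.02 (edgeR quasi-likelihood adjusted p = 1.00). *cyp-14A1*, next to *cyp-14A2*, was under the filter, with 68 counts over the CGP37157 libraries and 50 over the control libraries.

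The largest fold change of all 45 genes was that of *cyp-33C1*, and it was one of only 2 CYP33 genes among 12 tested that rose. *cyp-33C1* had 39.5, 36.7 and 36.9 CPM in the CGP37157 libraries (899, 1007 and 865 counts), against 0.167, 0.116 and 0.182 CPM in the control libraries (4, 2 and 4 counts). The log2 fold change was 7.85 ± 0.30 (SE, edgeR quasi-likelihood adjusted p = 5.07e-07), and the ratio at equal depth of the summed counts was 238 with an exact 95% counting interval of 129 to 497. Its neighbour *cyp-33C2* had 15.0, 15.3 and 19.3 CPM in the CGP37157 libraries, against 0.209, 0.116 and 0.319 CPM in the control libraries (log2 fold change 6.20 ± 0.36, SE, edgeR quasi-likelihood adjusted p = 5.53e-06). Both genes were near the limit of detection in every control library and clearly expressed in every treated library.

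The other CYP33C genes gave no such difference. *cyp-33C8*, *cyp-33C9* and *cyp-33C7* averaged 19.9 ± 4.38, 14.9 ± 2.19 and 14.1 ± 2.97 CPM in CGP37157-treated worms and 18.9 ± 3.62, 13.2 ± 2.11 and 9.53 ± 2.31 CPM in control worms (SD, n = 3 each). *cyp-33C3* averaged 6.99 ± 2.26 CPM in CGP37157-treated worms and 10.8 ± 4.99 CPM in control worms, and *cyp-33C5* averaged 1.98 ± 0.91 CPM in CGP37157-treated worms and 2.22 ± 0.30 CPM in control worms. *cyp-33C4* was the only tested gene in which every CGP37157 library was below every control library, with 3.69, 3.61 and 3.59 CPM in the CGP37157 libraries against 4.42, 4.29 and 4.46 CPM in the control libraries, but its log2 fold change of -0.28 ± 0.24 (SE) did not pass the test (edgeR quasi-likelihood adjusted p = 1.00). Outside CYP33C, *cyp-33A1* had 14.3, 17.9 and 15.4 CPM in the CGP37157 libraries, against 20.7, 12.3 and 18.3 CPM in the control libraries, and *cyp-33D1* had 1.01, 1.06 and 1.07 CPM in the CGP37157 libraries, against 1.34, 0.928 and 0.956 CPM in the control libraries. The groups overlapped in both.

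**Figure D2:**
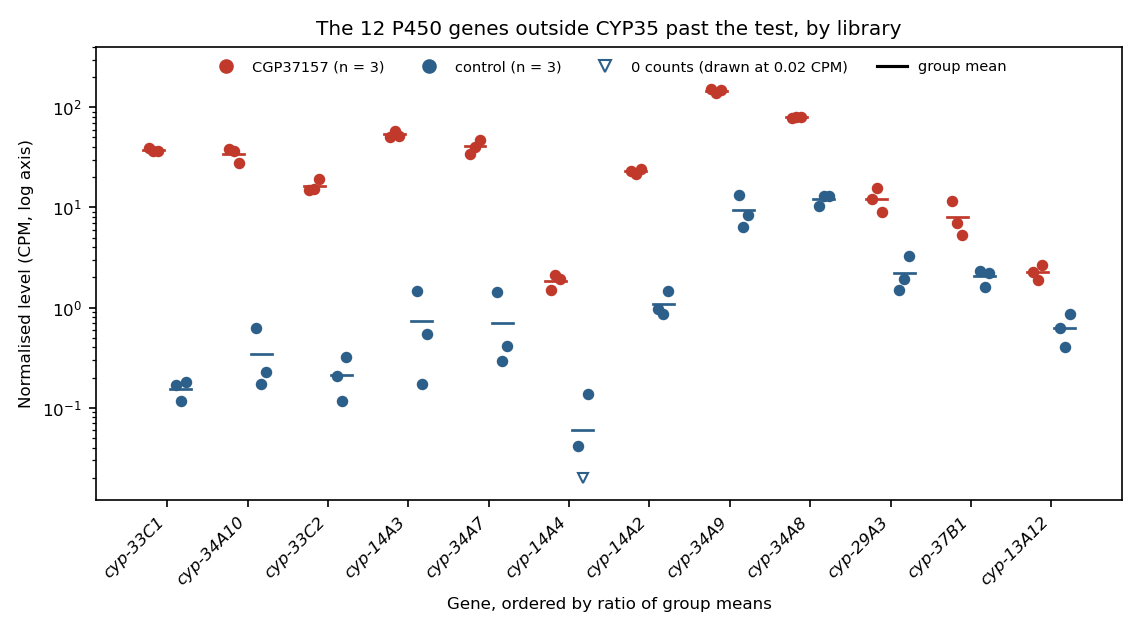
Level of the 12 P450 genes that rose, in CPM on a log axis, in each CGP37157 library (red) and each control library (blue), with the group mean as a bar; the open triangle marks the library with 0 counts of *cyp-14A4*. In every gene the 3 red points lie above the 3 blue points, from *cyp-33C1* (means of 37.7 CPM in CGP37157 and 0.155 CPM in control libraries) to *cyp-13A12* (2.26 CPM in CGP37157 and 0.632 CPM in control libraries).

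The remaining 3 genes that rose had smaller changes, and 2 of them lost their calls in fits that left out 1 library. *cyp-29A3*, whose product takes part in making eicosanoids, oxygenated derivatives of long-chain fatty acids, had 12.1, 15.7 and 8.92 CPM in the CGP37157 libraries, against 1.503, 1.914 and 3.278 CPM in the control libraries. The groups did not overlap, and the log2 fold change was 2.45 ± 0.35 (SE, edgeR quasi-likelihood adjusted p = 0.00427). *cyp-37B1* had 11.646, 7.003 and 5.251 CPM in the CGP37157 libraries, against 2.34, 1.62 and 2.23 CPM in the control libraries (log2 fold change 1.94 ± 0.35, SE, edgeR quasi-likelihood adjusted p = 0.0185). Its treated libraries were more spread than its control libraries, replicate 1 being the highest. The call was lost without CGP37157 replicate 1 (edgeR quasi-likelihood adjusted p = 0.0930), without CGP37157 replicate 2 (0.0521) and without control replicate 3 (0.0776).

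*cyp-13A12* belongs to a group of genes known for the behavioural response to the return of oxygen after hypoxia. It had 2.24, 1.90 and 2.65 CPM in the CGP37157 libraries, against 0.626, 0.406 and 0.865 CPM in the control libraries, with no overlap. The log2 fold change was 1.81 ± 0.37 (SE, edgeR quasi-likelihood adjusted p = 0.0416). This call was lost whichever of the 6 libraries was left out, with an edgeR quasi-likelihood adjusted p between 0.0624 and 0.168.

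The tested relatives of *cyp-29A3* and *cyp-37B1* did not pass the test. *cyp-29A2* was above its controls in every library, at 9.32, 15.6 and 14.3 CPM in the CGP37157 libraries against 8.39, 3.65 and 8.56 CPM in the control libraries, but its log2 fold change of 0.93 ± 0.34 (SE) missed the threshold (edgeR quasi-likelihood adjusted p = 0.643). *cyp-29A4* averaged 2.55 ± 0.94 CPM in CGP37157-treated worms and 3.56 ± 2.73 CPM in control worms (SD, n = 3 each). *cyp-37A1* had 30.9, 17.8 and 18.3 CPM in the CGP37157 libraries, against 28.9, 28.6 and 23.3 CPM in the control libraries, with a log2 fold change of -0.27 and a 95% interval of -0.85 to 0.30.

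Several of the genes that rose lay close together on the chromosomes. Positions are those of the WBcel235 annotation, Ensembl release 115, and P450 genes closer than 20 kb were joined into clusters. Of the 12 genes, 10 were in clusters, as were 24 of the 45 tested genes and 37 of the 64. *cyp-34A7*, *cyp-34A8*, *cyp-34A9* and *cyp-34A10* follow each other on the minus strand of chromosome V, between position 3961681 and position 3972991, with 981, 310 and 161 bases between neighbouring gene models. They form the end of a stretch of 36.7 kb that begins with *cyp-35A5* at position 3936326 and also holds *cyp-35B1*, *cyp-35B2* and *cyp-35B3* on the plus strand.

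Within that stretch the change was not uniform. *cyp-34A5*, at positions 3955701 to 3957708 and separated from *cyp-34A7* only by *cyp-34A6*, had a log2 fold change of 0.19 with a 95% interval of -0.49 to 0.86, which does not reach the 2.71 of *cyp-34A8*, the smallest among the neighbours that rose. *dach-1*, a gene of another kind between the CYP35 and CYP34 genes, had a log2 fold change of -0.08.

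On chromosome X, *cyp-14A2* (13267562 to 13269686), *cyp-14A3* (13271837 to 13274202) and *cyp-14A4* (13282043 to 13284197) all lie on the minus strand, and *cyp-14A1* precedes them at 206 bases. *phf-33*, which lies between *cyp-14A3* and *cyp-14A4*, averaged 1.48 CPM in CGP37157-treated worms and 1.47 CPM in control worms. On chromosome V, *cyp-33C1* (2179514 to 2181938) and *cyp-33C2* (2183488 to 2186599) lie on the plus strand, with 1549 bases between them that hold *srbc-16*, a gene under the filter. In the same cluster *nhr-13*, which encodes a nuclear hormone receptor, and *cyp-32B1* had log2 fold changes of -0.04 and -0.15. The next row of CYP33C genes, *cyp-33C4*, *cyp-33C3*, *cyp-33C5*, *cyp-33C6* and *cyp-33C7* at 2236140 to 2252591, held 4 tested genes. Of the 4, 0 rose in edgeR's quasi-likelihood test or with DESeq2. In the quasi-likelihood test 0 had an unadjusted p under 0.05, while *cyp-33C7* had a DESeq2 unadjusted p of 0.0478 (log2 fold change 0.59).

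The remaining clusters of genes outside CYP35 held 1 gene that rose, *cyp-13A12* (chromosome III, 13024547 to 13028017), beside the barely detected *cyp-13A11*. The row of 8 CYP13A genes on chromosome II (9779181 to 9807569) held 2 tested genes and the row of 4 CYP25A genes on chromosome III (3832591 to 3852080) held 4, of which none rose. *cyp-29A3* (chromosome V, 59239 to 63633) and *cyp-37B1* (chromosome V, 16278116 to 16280616) stand alone. Over all P450 clusters, CYP35 included, 13 protein-coding genes of other kinds were annotated and 8 were tested. Of the 8, 0 rose or fell in edgeR's quasi-likelihood test, with 0 at an unadjusted p under 0.05 and 0 with DESeq2. Over all tested genes 1.16% rose and 0.234% fell in that test, so 0 of 8 does not set these neighbours apart from other genes. By chromosome, 8 of the 24 tested P450 genes on chromosome V (31 before the filter) and 3 of the 5 on chromosome X (7 before the filter) rose. On chromosome III 1 of 5 rose (6 before the filter), and on chromosomes I, II and IV 0 of the 11 tested. These counts include the genes tested only through the CGP37157 libraries. The shares of all genes that rose on each chromosome were not computed, so the counts do not set any chromosome apart.

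**Figure D3:**
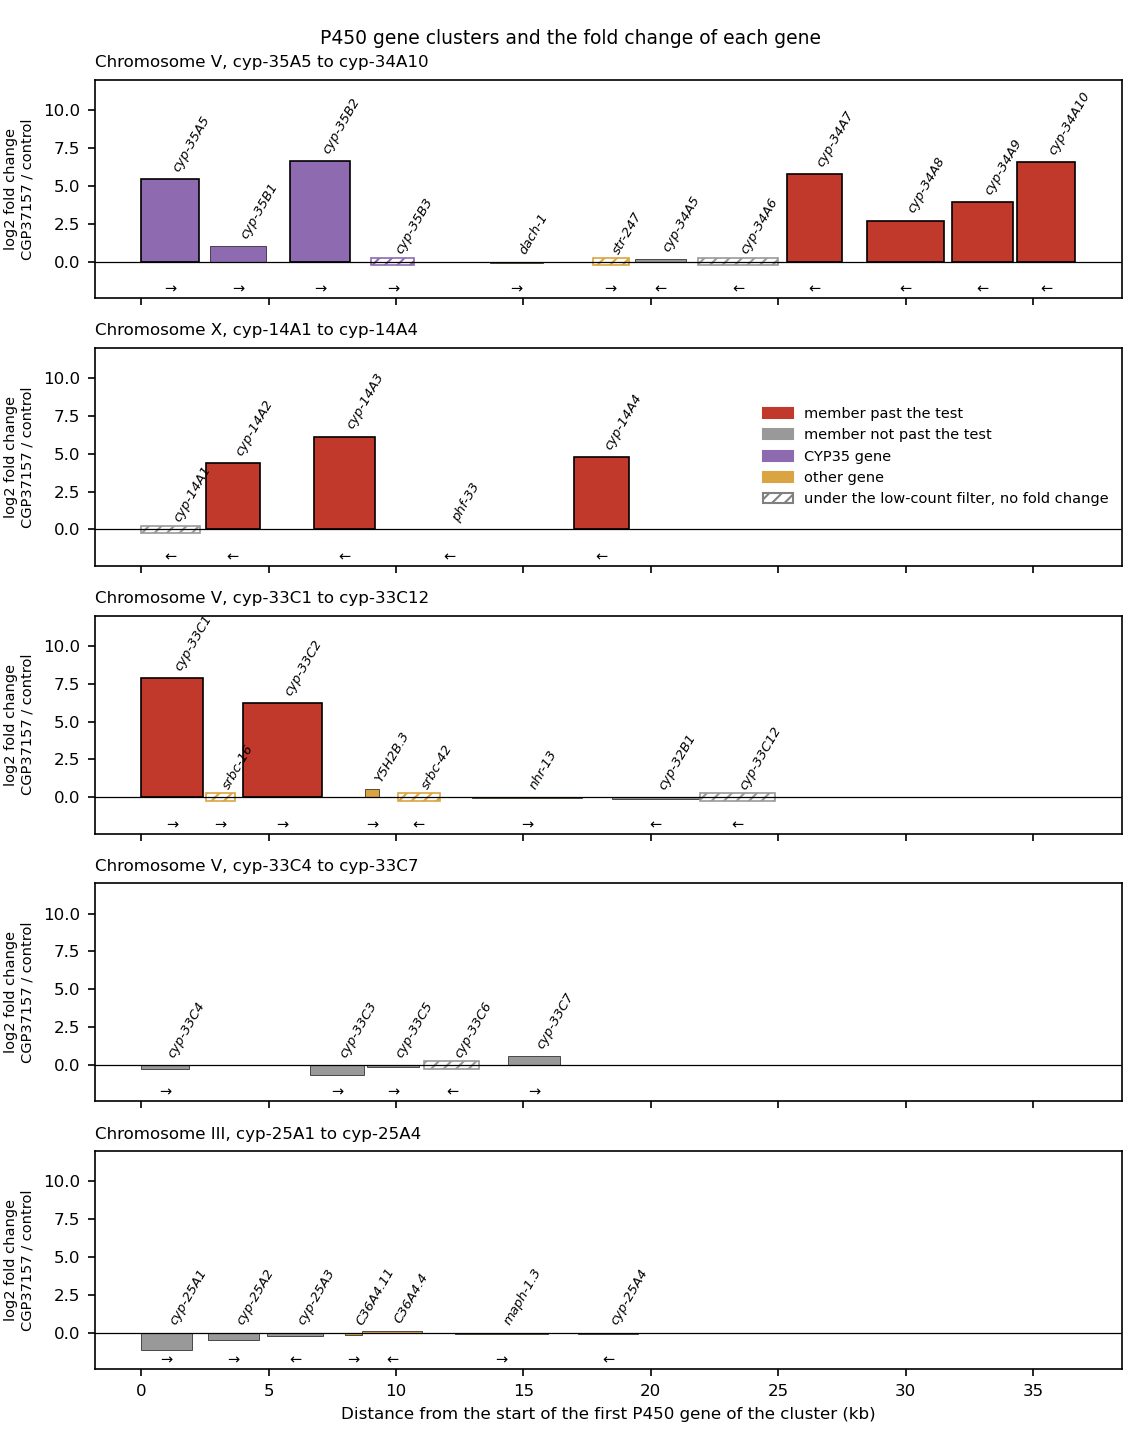
log2 fold change (CGP37157 over control) of the genes in 5 P450 clusters, drawn to scale against distance in kb from the start of the first P450 gene, with arrows for the strand; red bars are genes described here with an adjusted p under 0.05, grey bars those without, purple bars CYP35 genes, orange bars other protein-coding genes, and hatched boxes genes under the filter. The red bars stand in the first 3 clusters, from 2.71 (*cyp-34A8*) to 7.85 (*cyp-33C1*), with *phf-33* and *srbc-16* between some of them, and the last 2 clusters hold none.

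The CYP31 genes were among the most abundant in control worms, and none of the 3 passed the test. *cyp-31A2* and *cyp-31A3* are needed to make the lipid-rich layer of the eggshell. *cyp-31A2* had 111, 92.2 and 118 CPM in the CGP37157 libraries, against 105, 116 and 99.9 CPM in the control libraries. *cyp-31A3* had 57.4, 43.1 and 55.7 CPM in the CGP37157 libraries, against 56.4, 63.0 and 51.4 CPM in the control libraries. The groups overlapped in both, and the 95% intervals of the log2 fold change were -0.42 to 0.43 for *cyp-31A2* and -0.58 to 0.32 for *cyp-31A3*. *cyp-31A5* had 86.2, 63.2 and 62.1 CPM in the CGP37157 libraries, against 76.3, 74.2 and 62.6 CPM in the control libraries, with an interval of -0.47 to 0.45.

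*cyp-36A1*, which acts in the pathway of the oxygen-sensing enzyme EGL-9, had 37.8, 41.4 and 39.7 CPM in the CGP37157 libraries, against 33.6, 28.8 and 37.4 CPM in the control libraries. The groups came close to each other but did not overlap, and the log2 fold change was 0.25 with a 95% interval of -0.18 to 0.69 (edgeR quasi-likelihood adjusted p = 1.00). *cyp-44A1*, whose product resembles mitochondrial P450 enzymes, had 32.13, 31.004 and 26.81 CPM in the CGP37157 libraries, against 29.6, 17.3 and 35.4 CPM in the control libraries, with an interval of -0.47 to 0.72. The control libraries of *cyp-44A1* enclosed the treated ones.

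*cyp-33E2*, which like *cyp-29A3* has been linked to the production of eicosanoids, had 6.46, 8.35 and 4.10 CPM in the CGP37157 libraries, against 8.14, 1.51 and 5.78 CPM in the control libraries. Control replicate 2 was the lowest library, and the interval of -0.82 to 1.39 is wide. *cyp-33E1* had 8.79, 10.5 and 4.91 CPM in the CGP37157 libraries, against 6.47, 2.09 and 4.87 CPM in the control libraries (log2 fold change 0.84, 95% interval -0.08 to 1.76). *cyp-42A1* had 2.64, 3.72 and 2.60 CPM in the CGP37157 libraries, against 3.55, 2.55 and 4.37 CPM in the control libraries. In all 3 of these genes the groups overlapped.

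The CYP25 family was the only one with several tested genes in which every log2 fold change was below 0 in the fit of all 6 libraries, and none of its 4 tested genes passed the test. *cyp-25A1* had 1.23, 1.82 and 1.79 CPM in the CGP37157 libraries, against 4.05, 1.51 and 5.28 CPM in the control libraries. Control replicate 2 lay within the treated range and the other control libraries above it. The log2 fold change of -1.16 ± 0.43 (SE) missed the threshold (edgeR quasi-likelihood adjusted p = 0.649), and without control replicate 2 it was -1.52 (0.0376). *cyp-25A2*, *cyp-25A3* and *cyp-25A4* averaged 5.24 ± 0.88, 3.77 ± 1.01 and 6.18 ± 0.38 CPM in CGP37157-treated worms and 7.31 ± 3.78, 4.39 ± 2.14 and 6.58 ± 1.01 CPM in control worms (SD, n = 3 each).

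Of the other tested genes, *cyp-43A1* had 16.9, 26.3 and 17.6 CPM in the CGP37157 libraries, against 22.4, 15.9 and 19.9 CPM in the control libraries. *cyp-32A1* had 6.72, 7.95 and 8.71 CPM in the CGP37157 libraries, against 6.09, 4.23 and 7.88 CPM in the control libraries, and *cyp-32B1* had 6.50, 4.38 and 4.01 CPM in the CGP37157 libraries, against 7.85, 5.05 and 3.597 CPM in the control libraries. *cyp-13B2* had 0.747, 1.31 and 1.58 CPM in the CGP37157 libraries, against 1.67, 1.22 and 2.14 CPM in the control libraries. The groups overlapped in each. *cyp-13A2*, *cyp-13A5* and *cyp-13A10* averaged 7.56 ± 0.08, 2.13 ± 0.24 and 1.44 ± 0.79 CPM in CGP37157-treated worms and 5.30 ± 2.68, 3.00 ± 3.99 and 1.40 ± 1.00 CPM in control worms (SD, n = 3 each). The highest control library of *cyp-13A5* was 18.7 times the lowest, the widest such spread among the 45 genes apart from *cyp-14A4*, which had a control library at 0.

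The 19 genes under the filter were spread over 6 families, with 8 in CYP13, 6 in CYP33, 2 in CYP34 and 1 each in CYP14, CYP23 and CYP25. None was above 2.46 CPM in any library, and 9 had fewer than 10 counts in every library. In 2 of the 19 every CGP37157 library was above every control library. *cyp-13A3* had 12, 12 and 16 counts in the CGP37157 libraries, against 6, 3 and 8 in the control libraries. *cyp-13B1* had 12, 12 and 17 counts in the CGP37157 libraries, against 5, 4 and 2 in the control libraries. Neither was tested. *cyp-13A7*, known as a gene induced by the antibiotic rifampicin, had 36 counts over the CGP37157 libraries and 71 over the control libraries, 59 of them in 1 library.

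Summed over all 64 genes, P450 RNA outside CYP35 came to 1093, 1069 and 1051 CPM in the CGP37157 libraries, against 679, 622 and 782 CPM in the control libraries. The 12 genes that rose gave 455.5 ± 2.3 CPM of this in CGP37157-treated worms and 29.7 ± 4.2 CPM in control worms (SD, n = 3 each), that is 41.9%, 42.6% and 43.1% of the sum in the CGP37157 libraries against 4.9%, 4.0% and 4.0% in the control libraries. The other 52 genes together gave 615.5 ± 18.95 CPM in CGP37157-treated worms and 664.9 ± 78.5 CPM in control worms. These sums describe the libraries and were not tested, since the 12 genes were picked by the same contrast. In bulk RNA of whole worms, more RNA per cell and more cells of the expressing type cannot be told apart.

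Members of one subfamily can be similar in sequence, and reads that fit several of them may have been split or left out by the counting. The settings for such reads are not given in the sources used here. The raw counts of each subfamily were therefore also summed and tested in place of its genes. Such a sum does not depend on a split, but it cannot restore reads that were left out. Of the 10 subfamilies with several genes, 1 rose, against 1.07% of the 12359 rows tested in that fit. The CYP34A sum was 312, 305 and 311 CPM in the CGP37157 libraries, against 33.7, 27.1 and 31.9 CPM in the control libraries (log2 fold change 3.32 ± 0.21, SE, edgeR quasi-likelihood adjusted p = 8.50e-06). The CYP33C sum of 126.1, 118.6 and 104.9 CPM in the CGP37157 libraries, against 72.0, 56.1 and 52.7 CPM in the control libraries, had a log2 fold change of 0.95 ± 0.20 (SE) and an edgeR quasi-likelihood adjusted p of 0.0570. The groups did not overlap, and this sum passed the test with DESeq2 (adjusted p = 0.00234), with edgeR's likelihood ratio test (0.00340) and without control replicate 1 (0.0399). The CYP14A sum had a log2 fold change of 0.15 ± 0.29 (SE). *cyp-14A5* gave most of its counts in control worms, and averaged 105.2 CPM in CGP37157-treated worms and 163.8 CPM in control worms. The CYP31A sum was 229.7 ± 28.6 CPM in CGP37157-treated worms and 234.9 ± 19.8 CPM in control worms (SD, n = 3 each).

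**Figure D4:**
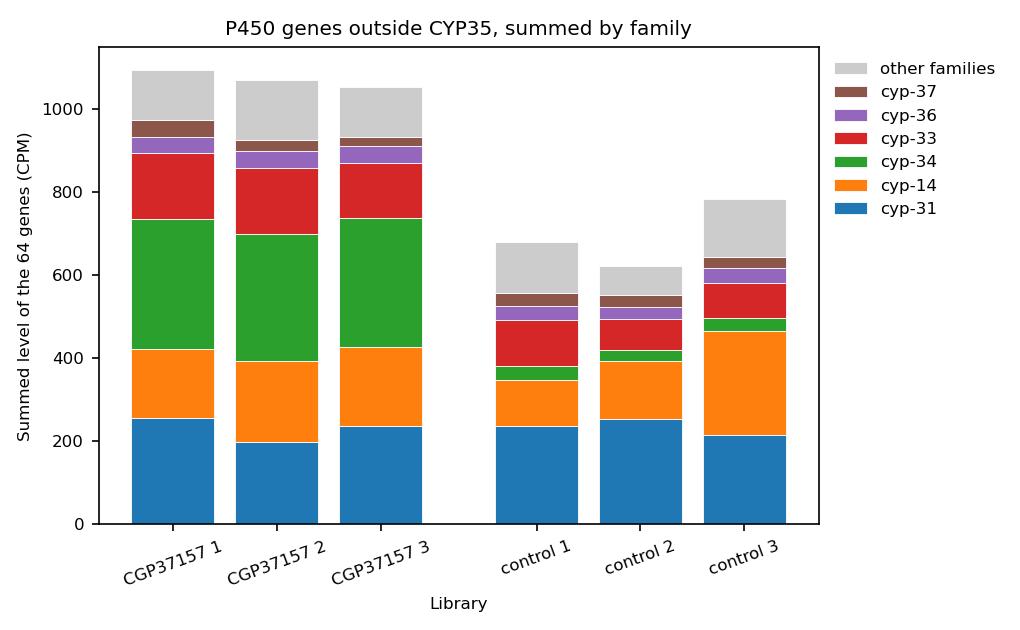
Summed level of the 64 P450 genes outside CYP35 in each library, in CPM, CGP37157 libraries left and control libraries right, with the 6 families of highest mean level in colour and the others in grey. The CYP34 part is 305 to 312 CPM in the CGP37157 libraries and 27.1 to 33.7 CPM in the control libraries, while the CYP31 part overlaps between the groups.

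Levels of different genes were compared per kilobase of annotated exon. In CGP37157-treated worms the order began with *cyp-34A9* (85.5 CPM per kb), *cyp-14A5* (67.4), *cyp-31A2* (65.7), *cyp-31A5* (50.4) and *cyp-34A8* (50.0 CPM per kb). In control worms it began with *cyp-14A5* (105), *cyp-31A2* (65.5), *cyp-31A5* (50.8), *cyp-31A3* (35.6) and *cyp-36A1* (19.01 CPM per kb), and *cyp-34A9* (5.50 CPM per kb) stood in place 15 of 45. *cyp-33C1* stood in place 11 in CGP37157-treated worms and 44 in control worms, *cyp-14A3* in place 6 in CGP37157-treated worms and 39 in control worms, and *cyp-34A7* in place 8 in CGP37157-treated worms and 40 in control worms. Neighbours in these orders often differed by less than the spread between replicates, as *cyp-31A5* and *cyp-34A8* did in CGP37157-treated worms.

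The control libraries were more spread than the treated ones in these genes. The median ratio of the highest to the lowest library in the 45 genes was 1.39 in CGP37157-treated worms and 1.88 in control worms, beside medians over all tested genes of 1.40 in CGP37157-treated worms and 1.58 in control worms. The CYP34A sum had an SD of 3.70 CPM around 309 CPM in CGP37157-treated worms and of 3.40 CPM around 30.9 CPM in control worms.

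P450 enzymes need electron donors, and a list of 23 genes with such partners, the dafachronic acid pathway and regulators of detoxification was looked at. Of these, 18 were tested, 1 rose and 0 fell, with a median log2 fold change of 0.08 (1.16% and 0.234% of all tested genes), 3 at an unadjusted p under 0.05 and the same 1 higher and 0 lower with DESeq2. The gene that rose was *cytb-5.1*, which encodes a cytochrome b5, with 172, 160 and 192 CPM in the CGP37157 libraries, against 29.8, 46.9 and 37.2 CPM in the control libraries. The groups were far apart, with a log2 fold change of 2.20 ± 0.23 (SE, edgeR quasi-likelihood adjusted p = 3.70e-04). The second cytochrome b5 gene, *cytb-5.2*, had 135, 117 and 121 CPM in the CGP37157 libraries, against 131, 137 and 117 CPM in the control libraries.

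*emb-8*, the P450 reductase, had 226, 212 and 238 CPM in the CGP37157 libraries, against 145, 170 and 171 CPM in the control libraries. Each treated library exceeded each control library, but the log2 fold change of 0.48 ± 0.19 (SE) did not pass the test (edgeR quasi-likelihood adjusted p = 0.788). Among the regulators, the nuclear hormone receptor gene *nhr-176*, known from the response to the drug thiabendazole, had 6.59, 9.27 and 4.65 CPM in the CGP37157 libraries, against 3.80, 3.02 and 3.51 CPM in the control libraries (log2 fold change 0.99 ± 0.30, SE, edgeR quasi-likelihood adjusted p = 0.330). *nhr-8*, a receptor gene involved in xenobiotic resistance, *mdt-15*, a Mediator subunit, *skn-1*, a regulator of detoxification genes, and *hif-1*, the hypoxia-inducible factor, had log2 fold changes of 0.45, 0.07, 0.08 and 0.03, and none passed the test. The same held for *ahr-1*, the aryl hydrocarbon receptor gene, and its partner gene *aha-1* (-0.14 and 0.15). *daf-9* was under the filter, and *daf-12*, the receptor of dafachronic acids, had a log2 fold change of 0.06.

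**Figure D5:**
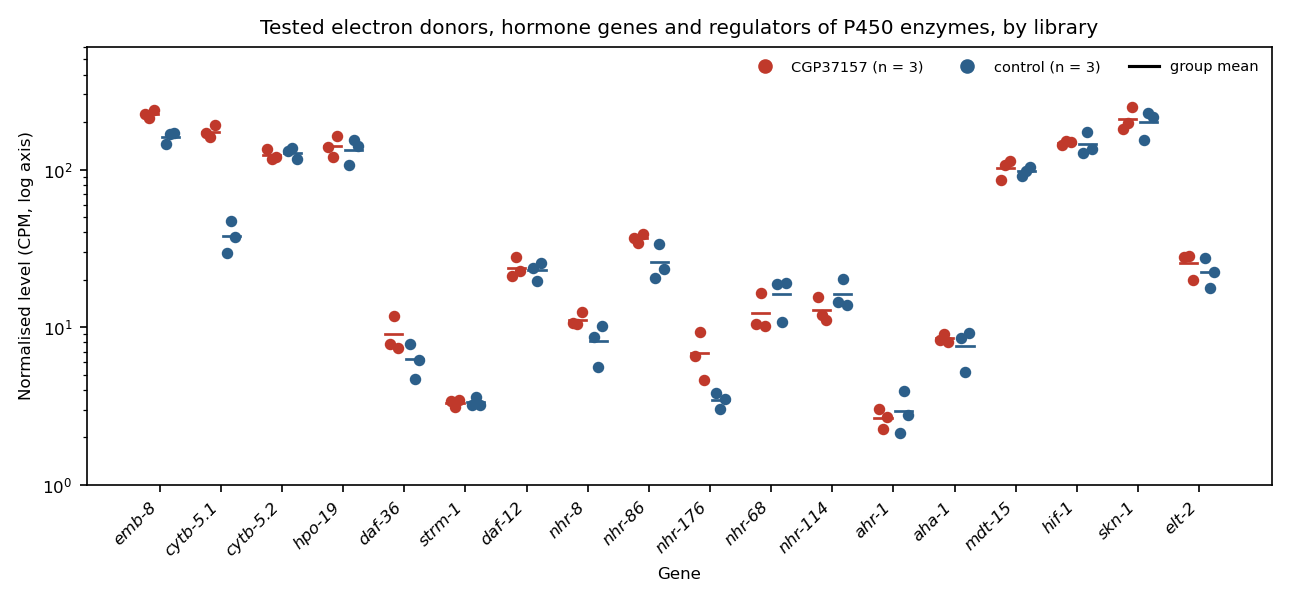
Level of the 18 tested genes of the partner and regulator list, in CPM on a log axis, in each CGP37157 library (red) and each control library (blue), with the group mean as a bar. *cytb-5.1* is the gene whose groups lie far apart (means of 174.5 CPM in CGP37157 and 37.97 CPM in control libraries), and *emb-8* shows a smaller gap (225.4 CPM in CGP37157 and 161.8 CPM in control libraries). Of the 18 genes, all CGP37157 libraries lie above all control libraries in *cytb-5.1*, *emb-8*, *nhr-176*, *nhr-8* and *nhr-86* (log2 fold change 0.509). Over all tested genes this held for 3.85%, and the difference in share was not tested. None of the receptor genes passed the test.

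Both the genes described here and those of the CYP35 family, which shares the chromosome V cluster, differed widely in their changes. Log2 fold changes lay between -1.165 and 7.852 here and between -0.734 and 8.056 in the CYP35 family. Of 9 tested CYP35 genes 7 rose, with a median log2 fold change of 5.44 over the 9, beside 12 of 45 and 0.08 here. The summed CYP35 level was 4174, 5530 and 3851 CPM in the CGP37157 libraries, against 139, 115 and 147 CPM in the control libraries. The difference between the 2 sets was not tested.

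Markers of 7 tissues or stages were followed in the same libraries. Only 2 of 4 hypodermal, 2 of 4 sperm and 2 of 5 embryo and larva markers could be tested. Of the tested markers 0 rose or fell in edgeR's quasi-likelihood test or with DESeq2, and 1 intestinal gene, *cpr-1*, had an unadjusted p under 0.05. Over all tested genes 1.16% rose and 0.234% fell in the quasi-likelihood test, so lists this short cannot show that the tissues were unchanged. The 8 intestinal markers summed to 3025 to 5259 CPM in CGP37157-treated worms and 2417 to 4516 CPM in control worms. Their log2 fold changes were all above 0, from 0.051 to 0.983 (median 0.37). The 5 germline and oocyte markers summed to 2647 to 3741 CPM in CGP37157-treated worms and 2487 to 4089 CPM in control worms. The 4 body-wall muscle markers summed to 2553 to 3398 CPM in CGP37157-treated worms and 2792 to 5601 CPM in control worms. Their log2 fold changes were all below 0, from -0.498 to -0.366 (median -0.382). The 5 embryo and larva markers summed to 125 to 152 CPM in CGP37157-treated worms and 113 to 147.5 CPM in control worms. The ranges of the sums overlapped between the groups, as did those of the hypodermal, neuronal and sperm lists. No marker was at 0 in all libraries. The part of these differences in the results above was not tested.

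The counting also limits single genes. *cyp-14A2*, *cyp-14A3*, *cyp-14A4*, *cyp-34A8* and *cyp-37B1*, and among the tested genes that did not rise *cyp-31A5*, *cyp-33D1*, *cyp-36A1*, *cyp-37A1* and *cyp-43A1*, overlap an annotated gene on the other strand, and *cyp-44A1* overlaps *npp-24* on its own strand. The library kit keeps the strand, but the strand setting of the counting is not given in the sources used here, so reads of such partners may be included.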

How the data were processed

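RNA from 6 samples of N2 worms was sequenced as TruSeq Stranded mRNA libraries in 100-cycle paired-end reads. Per the labels, HISAT2 and featureCounts were used by the authors, and DESeq2, edgeR and DESeq are also named; versions, genome build and strand setting are not given in the sources used here. The authors deposited 2 tables with the same raw counts per gene. Their other columns (scaled counts, group means, fold changes, test results, dispersions) were not used.

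Symbols were found for 44017 of 46904 identifiers. Genes with a CPM of at least 1 in at least 3 of 6 libraries were tested (12385) with edgeR 4.0.16 in R 4.3.3 (TMM, glmQLFit, glmQLFTest, condition only) and Benjamini-Hochberg adjustment. SE was the log2 fold change divided by the root of F, and 95% intervals used the t distribution of that fit. The test was checked on simulated counts of 12385 genes, 200 of them changed. It recovered 91% of the 4-fold and 25% of the 2-fold changes, with 9 false calls. A gene that did not pass the test may therefore still have changed 2-fold. Positions and exon lengths came from WBcel235 (Ensembl release 115). Replicates of a group differed by more than sampling noise (chi-square per degree of freedom of at least 47.4). Total counts of 21122852 to 24551795 set the precision: 3 counts correspond to 0.109 to 0.174 CPM.

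Values in every library are given for genes with an adjusted p under 0.05, the 8 with the highest mean CPM, the gene with the smallest p in each subfamily, and 10 genes with a described function, other tested genes by means. *cyp-13A7*, one of the 10, is under the filter and is given by counts. The members, lists and tests were chosen with earlier results of these data known. Alternatives were other normalizations (RLE, library sizes only), DESeq2 1.42.0, edgeR's likelihood ratio test, no filter, a filter at all 6 libraries, a replicate block, and leaving out each library.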

Additional observations from a re-analysis of the deposited data

How the results depend on the processing

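Of the 12 genes that rose, 10 passed the test in every one of the 13 alternatives that tested them, and no sign changed among the 12. The count of higher genes was 12 with RLE size factors, DESeq2, the likelihood ratio test or no filter, 10 with library sizes only, and 10 to 11 when 1 library was left out. It was 4 with a CPM of at least 1 required in all 6 libraries, where 31 of the genes could be tested. The count of lower genes was 0 to 1 with 1 library left out, the 1 being *cyp-25A1* without control replicate 2, and 0 otherwise. Library sizes only ended the calls of *cyp-13A12* (edgeR quasi-likelihood adjusted p = 0.125) and *cyp-37B1* (0.0882). Same-numbered libraries share a title suffix whose meaning is not given, so they were not taken as pairs. Their deviations from the group means correlated at 0.11, -0.51 and 0.39 (numbers 1 to 3). With 3 libraries in each group, these values cannot decide whether same-numbered libraries were prepared together. With the replicate block 10 genes were higher and 0 lower, 1 subfamily sum was higher and 0 lower, and *cyp-13A12* (adjusted p = 0.0729) and *cyp-37B1* (0.0544) lost their calls.

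The count of higher subfamily sums was 2 both in DESeq2 and in the likelihood ratio test (CYP33C beside CYP34A), 3 with no filter (CYP29A as well) and 1 to 2 with 1 library left out.

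Of the 33 genes without a call, 16 changed sign under some alternative, none with a call. The log2 fold change became 0.34 for *cyp-13A5* and -0.0020 for *cyp-31A2* with the replicate block. For *cyp-31A5* it was 0.0138 with RLE factors, 0.0151 with library sizes only, 0.0138 with DESeq2 and 0.0158 with no filter, and for *cyp-34A2* 0.0129, 0.0166, 0.0126 and 0.0139. With 1 library left out it ranged from -0.51 to 0.61 for *cyp-13A10*, -1.004 to 1.553 for *cyp-13A5*, -0.57 to 0.0726 for *cyp-25A3*, -0.19 to 0.0344 for *cyp-25A4*, -0.91 to 0.26 for *cyp-29A4*, -0.0557 to 0.0991 for *cyp-31A2*, -0.18 to 0.0877 for *cyp-31A5*, -0.39 to 0.20 for *cyp-32B1*, -0.30 to 0.0525 for *cyp-33A1*, -0.48 to 0.17 for *cyp-33C5*, -0.10 to 0.23 for *cyp-33C8*, -0.14 to 0.15 for *cyp-33D1*, -0.14 to 0.78 for *cyp-33E2*, -0.17 to 0.12 for *cyp-34A2*, -0.17 to 0.18 for *cyp-43A1* and -0.12 to 0.35 for *cyp-44A1*, and for the sums from -0.11 to 0.78 (CYP13A), -0.28 to 0.12 (CYP13B), -0.0794 to 0.57 (CYP14A) and -0.11 to 0.0621 (CYP31A). The cause was not tested.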
